A study of Mus musculus with 24 samples.

Results

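The genes described here are Dcn, Lum, Ogn, Slc6a13, Aldh1a2 and Bgn, 6 genes known to be expressed by fibroblasts of the meninges. They were taken by symbol from the 49568 gene symbols counted in each library of mouse hippocampal RNA, and they were read in 22 of the 24 libraries, leaving out 33B and 34B, which failed the quality control of the study. Male mice on a C57-Bl/6J background, 12 weeks old and experimentally naive, were either wild type (WT) or homozygous for a point mutation of the endogenous gene of MSK1 (Rps6ka5) that leaves the kinase inactive (MSK1 KD). MSK1 is a kinase activated by BDNF signaling that acts on transcription in the nucleus. Mice lived in standard housing (SH), the control condition, or in enriched cages (EE), each a large cage with a wheel and toys in which they were kept from before birth. The groups held 6 WT SH, 5 WT EE, 6 KD SH and 5 KD EE libraries, each made from polyadenylated RNA. WT and KD mice were bred as separate homozygous lines and not as littermates, so that genotype and line cannot be told apart. The point mutation leaves the transcript in place, so the level of Rps6ka5, which lay between 19.3 and 29.5 CPM (the counts of a gene scaled to a common library size) over the 22 libraries, did not check the genotype labels.

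The meninges wrap the brain, and the pia, their innermost layer, lies on the surface of the hippocampus and is carried with fibroblasts along the larger vessels into the tissue. Meningeal fibroblasts lay down collagen and the small leucine-rich proteoglycans, proteins with a horseshoe-shaped repeat that bind collagen fibrils and growth factors. Decorin (Dcn), biglycan (Bgn), lumican (Lum) and osteoglycin (Ogn) are members of that family, Slc6a13 encodes the GABA and taurine transporter GAT2, and Aldh1a2 encodes the retinaldehyde dehydrogenase that makes retinoic acid in the meninges. Whole hippocampus was sequenced, so that fewer cells of a type and less RNA per cell cannot be told apart in any value below.

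On GRCm38 all 6 genes lie on the plus strand. Dcn (chr10:97479609-97518143) and Lum (chr10:97565128-97572703) are direct neighbors, 46985 bp apart, with the proteoglycan gene Kera beyond Lum. Ogn (chr13:49608046-49624501) follows another gene of the family, Omd, at 15224 bp, and it lies across the oppositely oriented gene Cenpp without a shared exon. Slc6a13 (chr6:121300227-121337733) lies 5343 bp before its paralog Slc6a12. Aldh1a2 (chr9:71215789-71296243) and Bgn (chrX:73483602-73495933) have no related neighbor. Reads were counted without regard to strand, and no exon of the 6 genes overlapped an exon of another annotated gene.

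The promoters of Ogn, Slc6a13 and Aldh1a2, whose levels moved most closely together over the libraries, and that of Bgn, which varied less, are shown for what their sequences share. Each runs from 250 bases before to 50 bases after the RefSeq start (GRCm38.p6, plus strand), and 4 of the 6 genes had an entry in the table used. Capitals mark every match, on either strand, to TATAAA (the TATA box), to CCAAT (the site of NF-Y), to GGGCGG (the site of Sp1 factors), to GGAATG (the core bound by TEAD factors) or to TGANTCA (the site of AP-1), where N stands for any base, and matches that overlap run together.
Ogn, chr13:49607765-49608064: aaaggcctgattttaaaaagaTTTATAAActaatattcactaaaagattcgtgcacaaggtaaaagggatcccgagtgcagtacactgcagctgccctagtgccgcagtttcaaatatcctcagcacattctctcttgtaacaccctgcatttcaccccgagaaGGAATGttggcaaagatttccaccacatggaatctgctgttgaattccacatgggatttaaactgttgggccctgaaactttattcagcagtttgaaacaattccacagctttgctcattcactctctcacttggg
Slc6a13, chr6:121300038-121300337: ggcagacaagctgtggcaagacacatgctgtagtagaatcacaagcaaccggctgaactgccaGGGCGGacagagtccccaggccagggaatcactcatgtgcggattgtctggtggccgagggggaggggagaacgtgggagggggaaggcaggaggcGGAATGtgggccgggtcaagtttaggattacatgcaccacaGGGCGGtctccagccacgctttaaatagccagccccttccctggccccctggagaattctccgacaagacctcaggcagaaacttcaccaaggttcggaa
Aldh1a2, chr9:71215539-71215838: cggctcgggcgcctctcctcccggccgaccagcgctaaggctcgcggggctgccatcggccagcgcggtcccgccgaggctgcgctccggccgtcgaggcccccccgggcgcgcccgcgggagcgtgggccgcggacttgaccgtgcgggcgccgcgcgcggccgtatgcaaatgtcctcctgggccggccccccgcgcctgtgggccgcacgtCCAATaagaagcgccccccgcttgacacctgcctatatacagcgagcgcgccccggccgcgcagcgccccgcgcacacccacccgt
Bgn, chrX:73483351-73483650: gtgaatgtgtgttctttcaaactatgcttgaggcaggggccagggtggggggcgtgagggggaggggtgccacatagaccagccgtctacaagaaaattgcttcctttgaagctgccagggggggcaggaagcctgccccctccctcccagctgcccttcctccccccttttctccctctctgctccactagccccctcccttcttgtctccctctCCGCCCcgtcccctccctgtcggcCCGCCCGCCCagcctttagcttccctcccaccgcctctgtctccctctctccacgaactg

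The promoters differed widely in composition. Aldh1a2 had 78.0% G and C and a ratio of observed to expected CpG of 1.11, and 98.1% of the 32851 promoters of the table had less G and C. Ogn had 42.3% G and C and a CpG ratio of 0.3, and 14.9% of promoters had less G and C. Slc6a13 (59.0%) and Bgn (63.7%) lay between them, and the median promoter had 52.7%. GGAATG stood in Ogn and in Slc6a13, 86 and 91 bases before the start, and in 14.7% of all promoters. GGGCGG matched at 2 places in Slc6a13 and 3 in Bgn, and in 35.7% of all promoters. TATAAA was found in Ogn, first at position -229 from the start and so near the far end of the window (13.6% of all promoters). CCAAT was found in Aldh1a2 at position -36 (37.4%), and none of the 4 windows held TGANTCA (7.81%). No motif of the 5 was shared by Ogn, Slc6a13 and Aldh1a2. A match is a description of the letters and not of binding.

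Between 8911999 and 56752074 counts fell on genes in the 22 libraries (median 30265877), and 3 counts, taken as the floor of detection, corresponded to between 0.0529 and 0.337 CPM. All 6 genes were above that floor in every library, with between 31 (Slc6a13) and 3491 (Dcn) counts, and all 6 passed the filter on low counts. None of the 50 pairs of libraries within groups held identical counts. Libraries stood apart in choroid plexus transcripts. Ttr (transthyretin, a secretory product of choroid plexus epithelium) was between 16.8 and 167 CPM in 12 libraries and between 691 and 5129 CPM in the other 10, which were libraries 11 and 12 of WT SH, 16, 17 and 33A of WT EE, 2 of KD SH, and 7, 8, 32A and 36A of KD EE. The study itself had also removed libraries 2, 9, 12, 31B and 35A for poor correlation within their group, which left 17 libraries. Among WT, these held no SH library above 691 and no EE library below 3682 CPM of Ttr. Among KD, they held no SH library above 136 and no EE library below 910 CPM. The removal rested on expression values of these libraries, so results from the 17 libraries are not independent of it. Library 12 also had the highest sum of 7 thalamic markers, 474 CPM against a WT SH median of 137. Library 14, which is among the 17 and holds the highest Dcn of all libraries and the highest Bgn of WT SH, had 221 CPM of 7 striatal markers against a WT SH median of 93.0.

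Dcn was the most abundant of the 6 genes when counts were divided by exon length, and Lum the least. On the scale of CPM per kilobase, the levels over the 22 libraries were 8.80 ± 1.73 (SD, n = 22) for Dcn, 3.29 ± 1.5 for Slc6a13, 3.08 ± 1.27 for Ogn, 2.63 ± 1.23 for Aldh1a2, 2.59 ± 0.491 for Bgn and 1.73 ± 0.579 for Lum. Dcn stood above Slc6a13 in 22 of 22 libraries, and Bgn above Lum in 20. Slc6a13 was above Ogn in 14 libraries, Ogn above Aldh1a2 in 15 and Aldh1a2 above Bgn in 10, and the mean levels of these neighbors differed by less than their SD.

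Slc6a13, Aldh1a2 and Ogn also varied most. Their coefficients of variation of CPM were 45.6%, 47.0% and 41.1%, against 33.4% for Lum, 19.6% for Dcn and 19.0% for Bgn. Counting error alone gave 7.2%, 8.61% and 7.52% for the first of these genes and between 2.79% and 9.91% for the others. Among 8917 genes with mean levels between 3 and 60 CPM the median coefficient of variation was 11.3%. Between 98.7% and 98.8% of those genes had a smaller spread within groups than Ogn, Slc6a13 and Aldh1a2, as did 98.2% for Lum, 94.4% for Dcn and 85.3% for Bgn.

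**Figure D1:**
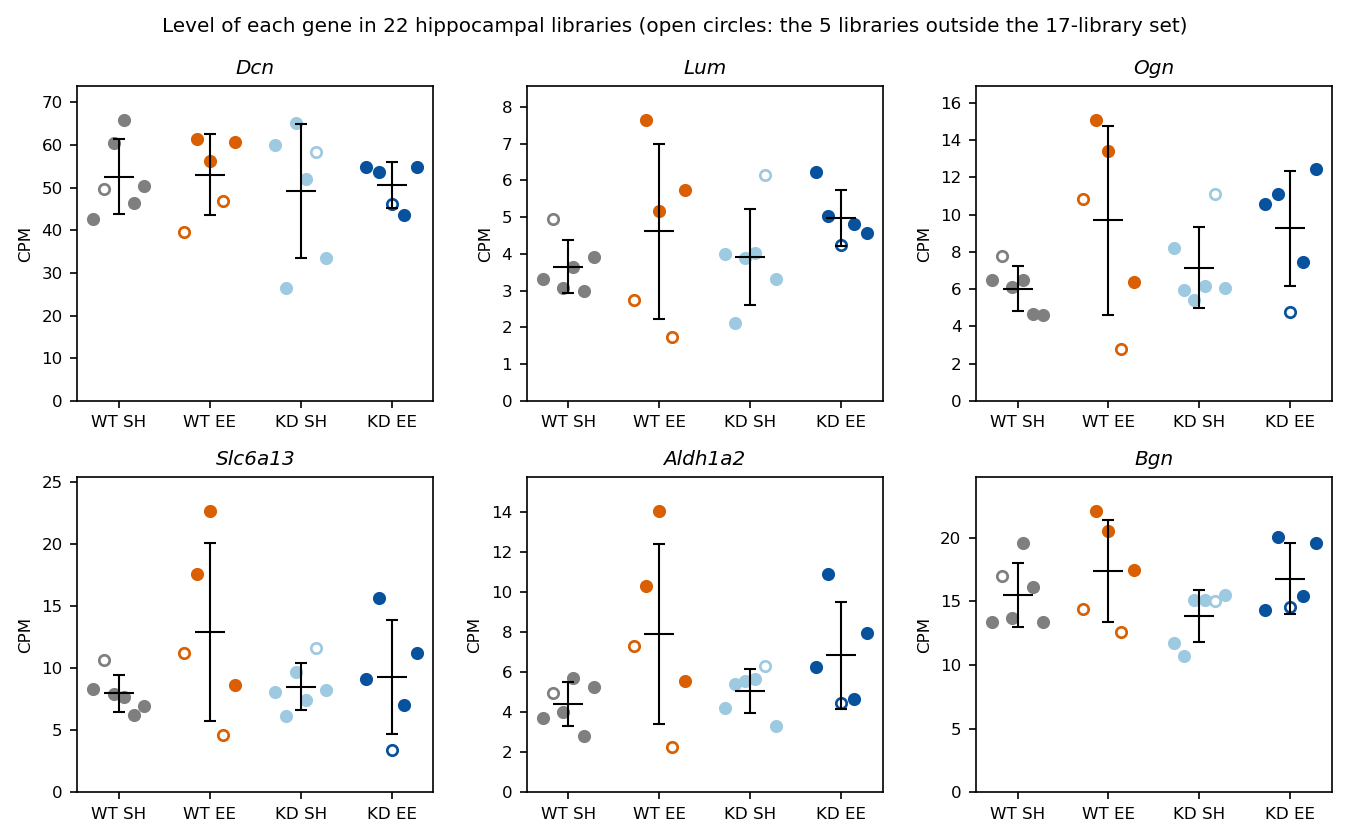
CPM (linear axis from 0) of each gene in each of the 22 libraries, by group. Circles are libraries, open where the study left the library out of its 17, and the bar and whiskers are the mean ± SD (n = 6, 5, 6 and 5). Ogn, Slc6a13 and Aldh1a2 spread most in WT EE, between 2.81 and 15.1 CPM, 4.60 and 22.7 CPM, and 2.25 and 14.1 CPM, while Dcn is level across the groups.

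The first comparison asked how housing went with these levels in mice with an active MSK1. Aldh1a2, Ogn and Slc6a13 had higher mean levels in WT EE than in WT SH, with log2 fold changes of 0.83, 0.68 and 0.69, while Dcn had mean levels of 52.6 ± 8.82 (SD, n = 6) CPM in SH and 53.1 ± 9.47 (SD, n = 5) in EE. None of the 6 genes was called, that is, none had both a Benjamini-Hochberg adjusted p of 0.05 or less in edgeR's quasi-likelihood test and a log2 fold change of at least 0.38 in size (1.3-fold). In the same test 0% of the 18482 genes were called, 1598 genes had an unadjusted p under 0.05, and DESeq2 called 23 genes with no member among them. At an unadjusted p under 0.05 and a higher level in EE there were 3 of the 6 genes (Aldh1a2, Ogn and Slc6a13) against 5.24% of all genes, and for no member were all EE libraries above all SH libraries, as was so for 0.46% of all genes.

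Among the proteoglycans, Dcn in WT SH libraries ran from 42.7 to 65.9 CPM with a median of 50.1. In WT EE it was 61.5 in library 16, 56.3 in 17, 47.0 in 31B, 60.8 in 33A and 39.7 in 35A. The groups overlapped throughout, the log2 fold change was 0.01 ± 0.17 (SE), and its 95% interval ran from -0.34 to 0.36.

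Bgn, the other proteoglycan with chains of chondroitin or dermatan sulfate and a close relative of decorin, ran from 13.4 to 19.6 CPM in WT SH, with a median of 14.9. In WT EE it was 22.1 in library 16, 20.5 in 17, 12.6 in 31B, 17.5 in 33A and 14.4 in 35A. Libraries 16 and 17 were above all SH libraries and 31B below them, and the log2 fold change was 0.16 ± 0.14 (adjusted p = 0.822, edgeR), with 0.06 without library 16 and 0.25 without 31B.

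Lum, a keratan sulfate proteoglycan of collagen-rich tissue, ran from 3.00 to 4.96 CPM in WT SH (median 3.49). In WT EE it was 7.65 in library 16, 5.17 in 17, 1.75 in 31B, 5.75 in 33A and 2.74 in 35A. The EE libraries thus stood on both sides of the SH range, 3 above it and 2 below it. The log2 fold change was 0.34 ± 0.26 with a 95% interval from -0.21 to 0.88 (adjusted p = 0.793, edgeR). It was 0.08 without library 16 and 0.53 without 31B.

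Ogn, first known from bone, ran from 4.61 to 7.76 CPM in WT SH (median 6.29). In WT EE it was 15.1 in library 16, 13.4 in 17, 2.81 in 31B, 6.37 in 33A and 10.8 in 35A. Here 3 EE libraries, 16, 17 and 35A, were above the SH range, 33A was inside it and 31B below it. The log2 fold change was 0.68 ± 0.29 with a 95% interval from 0.09 to 1.28 (unadjusted p = 0.0262, adjusted p = 0.485, edgeR).

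Slc6a13, the transporter, ran from 6.28 to 10.7 CPM in WT SH (median 7.81). In WT EE it was 17.6 in library 16, 22.7 in 17, 4.60 in 31B, 8.69 in 33A and 11.2 in 35A. The same 3 EE libraries were above the SH range, and the same library was below it. The log2 fold change was 0.69 ± 0.30, with a 95% interval from 0.08 to 1.3 (adjusted p = 0.494, edgeR).

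Aldh1a2, the enzyme of retinoic acid synthesis, ran from 2.84 to 5.71 CPM in WT SH (median 4.49). In WT EE it was 10.3 in library 16, 14.1 in 17, 2.25 in 31B, 5.59 in 33A and 7.33 in 35A. Libraries 16, 17 and 35A were again the high ones and 31B was below every SH library. The log2 fold change was 0.83 ± 0.30, with a 95% interval from 0.21 to 1.45 (adjusted p = 0.434, edgeR). Single libraries moved these differences both ways. Without library 31B they were 1.06 for Aldh1a2, 0.91 for Ogn and 0.90 for Slc6a13, without library 17 they were 0.53 for Aldh1a2 and 0.39 for Slc6a13, and without library 16 the difference for Ogn was 0.47. None of these was called.

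In the MSK1 KD mice all 6 genes had higher fitted levels in EE, with smaller differences than in WT for Aldh1a2, Ogn and Slc6a13, and none was called. The share of all genes called was 0% (1779 genes at an unadjusted p under 0.05, and 2 genes but no member called by DESeq2), and at an unadjusted p under 0.05 with a higher level in EE there were 0 members against 5.03% of all genes. No member had all KD EE libraries above all KD SH libraries, against 0.233% of all genes.

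Slc6a13 in KD SH ran from 6.19 to 11.6 CPM (median 8.15). In KD EE it was 11.2 in library 7, 7.08 in 8, 3.45 in 9, 15.7 in 32A and 9.11 in 36A. Library 9 held the lowest level of all 22 and 32A was above the SH range, and the log2 fold change was 0.15 ± 0.30 (adjusted p = 0.896, edgeR). Without 32A it was -0.13.

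Aldh1a2 in KD SH ran from 3.32 to 6.31 CPM (median 5.49). In KD EE it was 7.97 in library 7, 4.66 in 8, 4.45 in 9, 10.9 in 32A and 6.26 in 36A. Libraries 7 and 32A were above the SH range and the others inside it, with a log2 fold change of 0.45 ± 0.30 (adjusted p = 0.643, edgeR). Without 32A it was 0.19.

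Ogn in KD SH ran from 5.43 to 11.1 CPM (median 6.13), with library 2 well above the others. In KD EE it was 12.5 in library 7, 7.47 in 8, 4.79 in 9, 11.1 in 32A and 10.6 in 36A. Only library 7 was above and only 9 below the SH range, and the log2 fold change was 0.39 ± 0.29 (adjusted p = 0.675, edgeR).

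Lum in KD SH ran from 2.12 to 6.14 CPM (median 3.94). In KD EE it was 4.56 in library 7, 4.82 in 8, 4.23 in 9, 5.04 in 32A and 6.23 in 36A. The groups overlapped, since library 2 of KD SH was above every KD EE library but 36A. The log2 fold change was 0.34 ± 0.27 (adjusted p = 0.683, edgeR), or 0.52 without library 2.

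Dcn in KD SH ran from 26.5 CPM in library 5 and 33.5 in library 6 to 65.1 in library 4 (median 55.2), and in KD EE it ran from 43.6 to 54.9 CPM (median 53.7). The KD SH libraries held between 10.7 and 15.5 CPM of Bgn (median 15.1), and the KD EE libraries 14.3 to 20.1 CPM (median 15.4). For both genes the ranges overlapped. The log2 fold changes were 0.04 ± 0.17 for Dcn and 0.27 ± 0.14 for Bgn (adjusted p = 0.967 and 0.547, edgeR), and the 95% interval for Dcn ran from -0.32 to 0.39.

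Averaged over genotypes, the housing difference was 0.64 ± 0.21 for Aldh1a2, 0.54 ± 0.21 for Ogn, 0.42 ± 0.21 for Slc6a13, 0.34 ± 0.19 for Lum, 0.22 ± 0.10 for Bgn and 0.02 ± 0.12 for Dcn, on the log2 scale. The adjusted p values of edgeR ran from 0.13 for Aldh1a2 to 0.955 for Dcn, and no member was called against 0.146% of all genes (27 genes). At an unadjusted p under 0.05 and higher in EE there were 3 members, Aldh1a2, Ogn and Bgn, against 8.86% of all genes. One library decided these calls. Without library 31B the averaged difference was 0.75 for Aldh1a2 (adjusted p = 0.0263, edgeR) and 0.65 for Ogn (adjusted p = 0.0392, edgeR), and both were called among 287 genes (1.54% of those tested). Without library 17 the averaged difference was 0.27 for Slc6a13 and 0.49 for Aldh1a2, and without library 16 it was 0.21 for Lum and 0.43 for Ogn.

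**Figure D2:**
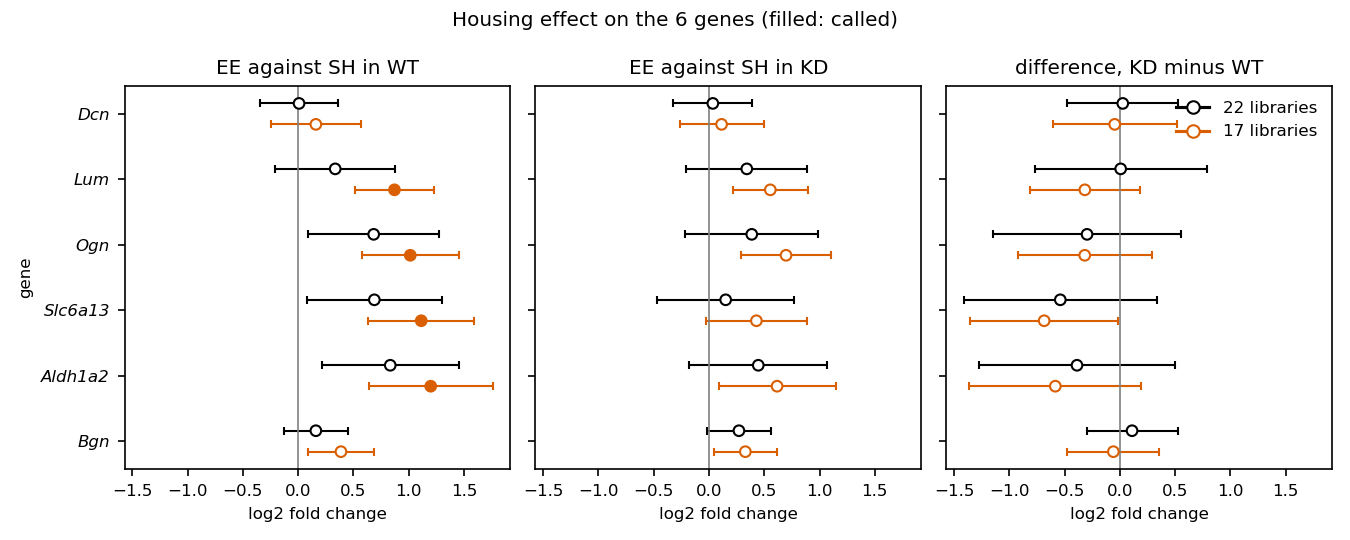
Log2 fold change of EE over SH in WT (left) and in KD (middle), and the difference of these effects, KD minus WT (right), for the 6 genes. Points are edgeR estimates and whiskers 95% intervals, from 22 libraries (black) or the study's 17 (orange), filled where called. Lum, Ogn, Slc6a13 and Aldh1a2 are filled in WT with 17 libraries and nowhere else.

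The set of libraries changed the result in WT. With the 17 libraries of the study, 3.55% of 18701 genes were called between WT EE and WT SH, and 4 of the 6 genes were among them. Aldh1a2 was higher by 1.20 ± 0.27 on the log2 scale (adjusted p = 0.00897, edgeR), Slc6a13 by 1.11 ± 0.23 (adjusted p = 0.00427, edgeR), Ogn by 1.01 ± 0.21 (adjusted p = 0.00432, edgeR) and Lum by 0.87 ± 0.17 (adjusted p = 0.00268, edgeR). Bgn (0.39 ± 0.15, adjusted p = 0.187, edgeR) and Dcn (0.16 ± 0.20, adjusted p = 0.794, edgeR) were not called. Every EE library was above every SH library for Lum and Slc6a13, as for 8.08% of all genes. The EE libraries left in that comparison were 16, 17 and 33A. For Ogn and Aldh1a2, library 33A stayed inside the SH range.

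In KD with the 17 libraries, no member was called, against 1.74% of all genes. The log2 fold changes were 0.70 ± 0.20 for Ogn (adjusted p = 0.0846, edgeR), 0.62 ± 0.26 for Aldh1a2 (adjusted p = 0.336, edgeR), 0.55 ± 0.16 for Lum (adjusted p = 0.101, edgeR) and 0.43 ± 0.22 for Slc6a13 (adjusted p = 0.482, edgeR). Lum was the only member with no overlap between the groups, against 2.12% of all genes. Averaged over genotypes, Lum, Ogn, Slc6a13 and Aldh1a2 were called with 17 libraries, against 3.85% of all genes. Bgn had an adjusted p of 0.0334 (edgeR) there, with a log2 fold change of 0.36 that stayed under the fold threshold.

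Libraries 31B, 32A, 33A, 35A and 36A have a letter in their code and were all EE, and the labels do not say what the letter stands for. Without them WT EE was left with libraries 16 and 17, the 2 of that group with the highest Slc6a13 and Aldh1a2, and Aldh1a2 (1.47), Slc6a13 (1.34) and Ogn (1.25) were called in WT, where 1.64% of all genes were called. In the average over genotypes only Aldh1a2 was called (0.81), against 0.418% of all genes. In KD, where libraries 7, 8 and 9 were left, the same genes had log2 fold changes of 0.16, -0.21 and 0.22, and none was called, nor was any other gene (0%).

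Choroid plexus transcripts moved with housing in the same direction. Of 17 marker genes of choroid plexus epithelium, 17 had a higher level in EE in WT and 17 in KD with the 22 libraries, with median log2 fold changes of 2.57 and 2.02 against 0.01 and 0.00 over all genes, and none was called in either comparison. With the 17 libraries of the study all 17 markers were called higher in EE in WT, in KD and in the average, with median log2 fold changes of 4.29, 4.17 and 4.21. Their summed level ran from 249 to 2840 CPM in WT SH (median 292), 237 to 8225 in WT EE (median 6069), 229 to 4443 in KD SH (median 372) and 479 to 8539 in KD EE (median 3495), and none of the 17 was at 0 in all libraries. With the mean log2 CPM of these genes as a covariate, the housing difference in WT was 0.49 ± 0.27 for Aldh1a2, 0.39 ± 0.26 for Ogn, 0.31 ± 0.25 for Slc6a13 and -0.20 ± 0.16 for Lum, and in KD it was 0.03 for Aldh1a2, 0.035 for Ogn, -0.32 for Slc6a13 and -0.24 for Lum. No member was called with the covariate. Whether choroid plexus tissue carried with the hippocampus had a part in the levels of the 6 genes was not tested beyond these values.

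The question behind the genotype comparisons was whether MSK1 activity goes with these levels. In SH, KD differed from WT by log2 fold changes between -0.16 (Bgn) and 0.25 (Ogn), and 0 members and 0% of all genes were called (1065 genes at an unadjusted p under 0.05, and 2 genes but no member by DESeq2). In EE the differences ran from -0.43 ± 0.31 (Slc6a13) to 0.13 ± 0.28 (Lum), and again 0 members and 0% of all genes were called (482 genes at an unadjusted p under 0.05, and 0 by DESeq2). These comparisons use the same libraries as those of housing and are not independent of them. With 17 libraries the counts of members were 0 in both, against 0% of genes in SH and 0.00535% (1 gene) in EE, where Slc6a13 was lower in KD by -0.59 ± 0.24 with an unadjusted p of 0.0253 and an adjusted p of 0.71 (edgeR). These intervals do not show equal levels. For Slc6a13 in EE with 22 libraries the 95% interval ran from -1.08 to 0.21, and for Aldh1a2 from -0.83 to 0.47.

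The difference between the housing effects of the genotypes was tested as an interaction. It was -0.54 ± 0.42 for Slc6a13, -0.39 ± 0.43 for Aldh1a2 and -0.30 ± 0.41 for Ogn, where a negative value is a smaller EE effect in KD, and between 0.01 and 0.11 for Lum, Dcn and Bgn. With single libraries left out it ran from -0.82 (without 32A) to -0.245 (without 17) for Slc6a13, from -0.64 (without 32A) to -0.085 (without 17) for Aldh1a2 and from -0.53 (without 31B) to -0.087 (without 16) for Ogn. All adjusted p values were 1 (edgeR), 0 members and 0% of all genes were called by edgeR, DESeq2 called 0 genes, and 377 genes had an unadjusted p under 0.05. With 17 libraries Slc6a13 had -0.69 ± 0.32 (unadjusted p = 0.0449, adjusted p = 0.875, edgeR), and again 0% of genes were called. That 4 members were called in WT and none in KD with 17 libraries was therefore not shown to be a difference between the genotypes.

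The 6 genes did not move as 1 block from library to library. After the group means were removed from log2 CPM, Pearson's r over the 22 libraries lay between 0.279 and 0.889 for the 15 pairs (median 0.618), and 9 pairs had an adjusted p of 0.05 or less (permutation within groups, two-sided, adjusted over 39 relations). The highest value joined Ogn and Slc6a13, with r = 0.889 (permutation p = 3e-05, adjusted p = 0.000585) and Spearman's rho = 0.849 (permutation p = 9e-05, adjusted p = 0.00175). Slc6a13 and Aldh1a2 had r = 0.834 (permutation p = 0.00011, adjusted p = 0.00143) and rho = 0.749 (permutation p = 0.00108, adjusted p = 0.0105). Ogn and Aldh1a2 had r = 0.807 (permutation p = 0.00072, adjusted p = 0.00702) and rho = 0.715 (permutation p = 0.00202, adjusted p = 0.0158). Without the 2 libraries farthest from the median of the first gene of each pair, r was 0.768, 0.752 and 0.579. In the 17 libraries it was 0.735, 0.73 and 0.555, and for Ogn and Aldh1a2 the permutation p was then 0.097.

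Dcn, though the most abundant, followed these genes least over the 22 libraries, while in the 17 libraries Lum had lower r with each of them (0.064 to 0.179) than Dcn (0.204 to 0.288). For Dcn the 22-library r was 0.279 with Ogn (permutation p = 0.192, adjusted p = 0.208), 0.352 with Slc6a13 (permutation p = 0.049, adjusted p = 0.0682) and 0.332 with Aldh1a2 (permutation p = 0.0928, adjusted p = 0.11), and rho was 0.255, 0.359 and 0.433 (permutation p = 0.247, 0.0983 and 0.0397, adjusted p = 0.267, 0.128 and 0.0737). Without the 2 farthest libraries r was 0.285, 0.366 and 0.422. With Lum, its neighbor on chromosome 10, Dcn had r = 0.605 (permutation p = 0.00511, adjusted p = 0.0249) and rho = 0.596 (permutation p = 0.00787, adjusted p = 0.0437), and r = 0.49 without the 2 farthest libraries. The low Dcn of libraries 5 and 6 had no counterpart in Ogn, at 5.97 and 6.08 CPM near the KD SH median.

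Lum and Ogn illustrate a relation that rests on few libraries. Their r of 0.658 (permutation p = 0.0158, adjusted p = 0.0385) went with a rho of 0.45 (permutation p = 0.0923, adjusted p = 0.128), and it was 0.328 without the 2 farthest libraries and 0.179 in the 17 libraries. Bgn had r between 0.473 and 0.677 with the other members, highest with Slc6a13 (r = 0.677, permutation p = 0.00246, adjusted p = 0.016, and rho = 0.612, permutation p = 0.0123, adjusted p = 0.0437), which was 0.591 without the 2 farthest libraries.

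**Figure D3:**
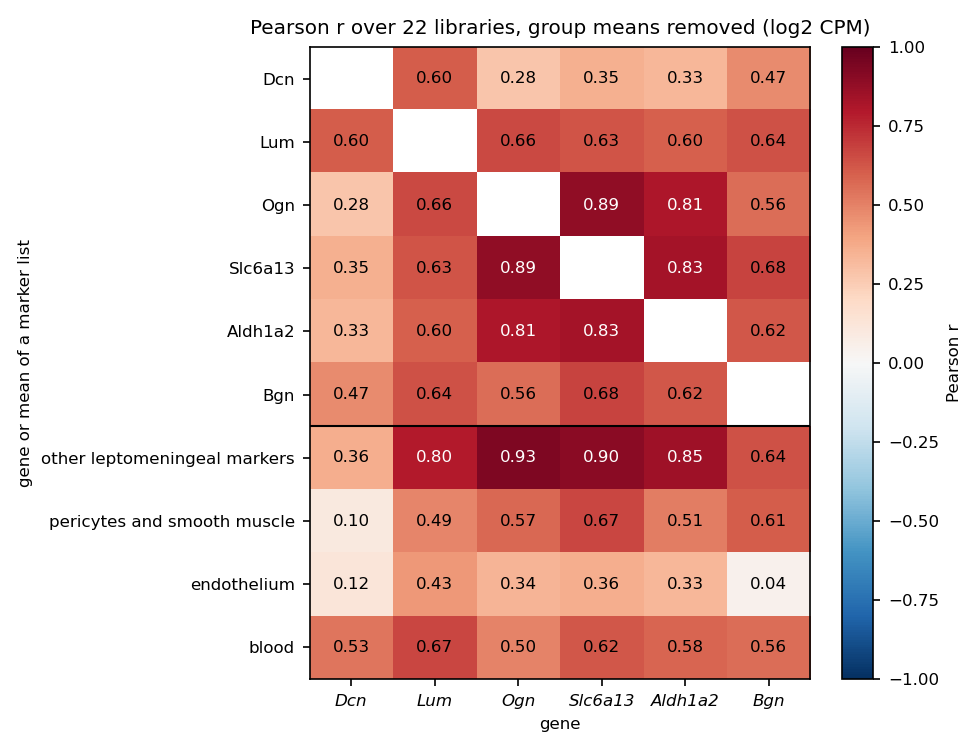
Pearson's r over the 22 libraries between the 6 genes (upper rows) and with the mean log2 CPM of 4 marker lists (lower rows), group means removed. Color runs from -1 (blue) to 1 (red). Ogn, Slc6a13 and Aldh1a2 form the darkest block with the other leptomeningeal markers (0.851 to 0.934), and Dcn is pale against all 3.

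Each member was set beside the mean of 35 other markers of the leptomeninges, a relation added after the data had been seen. Ogn (r = 0.934, rho = 0.897, both permutation p = 1e-05 and adjusted p = 0.00018), Slc6a13 (r = 0.904, permutation p = 3e-05, adjusted p = 0.00018, and rho = 0.88, permutation p = 4e-05, adjusted p = 0.00036) and Aldh1a2 (r = 0.851, permutation p = 0.0002, adjusted p = 0.0009, and rho = 0.79, permutation p = 0.00029, adjusted p = 0.0013) followed it closely, where 1e-05 is the smallest p that the 100000 permutations can give. Without the 2 farthest libraries, 16 and 31B, r was 0.857, 0.881 and 0.714. Lum had r = 0.795 (permutation p = 0.00033, adjusted p = 0.00105) and rho = 0.616 (permutation p = 0.00502, adjusted p = 0.0151), but 0.582 without these libraries. Bgn had r = 0.638 (permutation p = 0.00658, adjusted p = 0.011) and rho = 0.554 (permutation p = 0.021, adjusted p = 0.042), and Dcn r = 0.362 (permutation p = 0.0794, adjusted p = 0.0953) and rho = 0.451 (permutation p = 0.0295, adjusted p = 0.0531), with 0.451 and 0.366 without the 2 farthest. In the 17 libraries r was 0.808 for Ogn, 0.797 for Slc6a13 and 0.674 for Aldh1a2 (permutation p = 0.0114, 0.0291 and 0.0412). There r was 0.325 for Lum, 0.335 for Bgn and 0.252 for Dcn (permutation p = 0.242, 0.181 and 0.0334). Ogn, Slc6a13 and Aldh1a2 thus moved with the other markers, and for Dcn neither adjusted p was 0.05 or less. The list of 35 markers was chosen with earlier results of these data known, so it cannot independently check the name given to the genes. The list holds Igf2 and Slc13a4, both also known from choroid plexus, so following it does not single out meningeal fibroblasts. Adjustment was over 18 added relations, all by the same permutation test. The others of them set the genes beside 24 matrix genes and the 10 tested of 11 ependymal markers. With the matrix genes r ran from 0.337 (Dcn, adjusted permutation p = 0.137) to 0.819 (Lum, adjusted permutation p = 0.00018). With the ependymal markers r ran from 0.405 (Aldh1a2, adjusted permutation p = 0.275) to 0.816 (Lum, adjusted permutation p = 0.00465). In the 17 libraries r with the matrix genes ran from 0.008 (Bgn) to 0.475 (Slc6a13), with 0.403 for Lum. There r with the ependymal markers ran from -0.438 (Aldh1a2) to 0.47 (Dcn), with 0.406 for Lum. It was also negative for Ogn, Slc6a13 and Bgn.

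Markers of other cells of the vessel wall and of blood moved with some of the 6 genes. Of 11 pericyte and smooth muscle markers 10 passed the filter on low counts. With the mean of these 10, Slc6a13 had r = 0.671 (permutation p = 0.001, adjusted p = 0.0078) and rho = 0.759 (permutation p = 0.00026, adjusted p = 0.00338), and 0.733 without the 2 farthest libraries, while Dcn had r = 0.095 (permutation p = 0.732, adjusted p = 0.752) and rho = 0.072 (permutation p = 0.773, adjusted p = 0.793). The summed level of that list differed little between groups, with medians from 247 to 255 CPM. With 10 endothelial markers r lay between 0.041 (Bgn, adjusted p = 0.857) and 0.435 (Lum, adjusted p = 0.0249, permutation). With 5 blood genes r lay between 0.498 (Ogn, adjusted p = 0.185) and 0.667 (Lum, adjusted p = 0.0623, permutation), with Slc6a13 at 0.624 (adjusted p = 0.0394) and Dcn at 0.534 (adjusted p = 0.0351). Neither kept a permutation p under 0.05 in the 17 libraries, and the summed blood level ran from 29.5 CPM to 128 CPM in WT EE, the latter in library 17. Their part in the levels of the 6 genes was not tested.

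Levels of choroid plexus markers fell into separate clusters of libraries, so no pooled correlation is given. The median levels in the low and high clusters were 6.09 and 10.8 CPM for Ogn, 7.81 and 10.95 for Slc6a13, and 4.34 and 6.29 for Aldh1a2. They were 3.32 and 5.10 for Lum, 46.7 and 54.9 for Dcn, and 14.5 and 17.2 for Bgn. Most libraries of the high cluster were EE. In each of the 4 groups Lum was lower in every library of low Ttr than in every library of high Ttr. In KD SH library 2 alone was of high Ttr, and in KD EE library 9 alone was of low Ttr. In these groups the separation rests on that library, and how many of all genes separate in this way was not counted. Within the 12 libraries of low choroid score, Lum had r = 0.683 (permutation p = 0.0149, adjusted p = 0.0892) and rho = 0.825 (permutation p = 0.00174, adjusted p = 0.0209) with that score. Within the 10 libraries of high score it had r = 0.797 (permutation p = 0.00525, adjusted p = 0.063) and rho = 0.842 (permutation p = 0.00376, adjusted p = 0.0226). Without the 2 farthest libraries of each cluster r was 0.611 and 0.606. In the low cluster Ogn (-0.012, permutation p = 0.969, adjusted p = 0.969) and Slc6a13 (-0.17, permutation p = 0.611, adjusted p = 0.666) had r near or below 0, and in the high cluster their r was 0.392 (permutation p = 0.259, adjusted p = 0.486) and 0.376 (permutation p = 0.283, adjusted p = 0.486). Their rho values were 0.133 and 0.021 in the low cluster and 0.212 and 0.297 in the high one (permutation p = 0.683, 0.956, 0.563 and 0.407, adjusted p = 0.798, 0.956, 0.75 and 0.61), and r without the 2 farthest was 0.25, 0.211, 0.259 and 0.168. For Aldh1a2 r was 0.383 and 0.312 (permutation p = 0.219 and 0.377, adjusted p = 0.486 and 0.551), rho was 0.427 and 0.333 (permutation p = 0.168 and 0.349, adjusted p = 0.404 and 0.599), and without the 2 farthest libraries r was 0.388 and 0.358. For Dcn and Bgn r lay between 0.186 and 0.569, with adjusted permutation p values of 0.159 or more for r and rho. These 12 relations were added after the data had been seen, and group means were not removed in them.

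**Figure D4:**
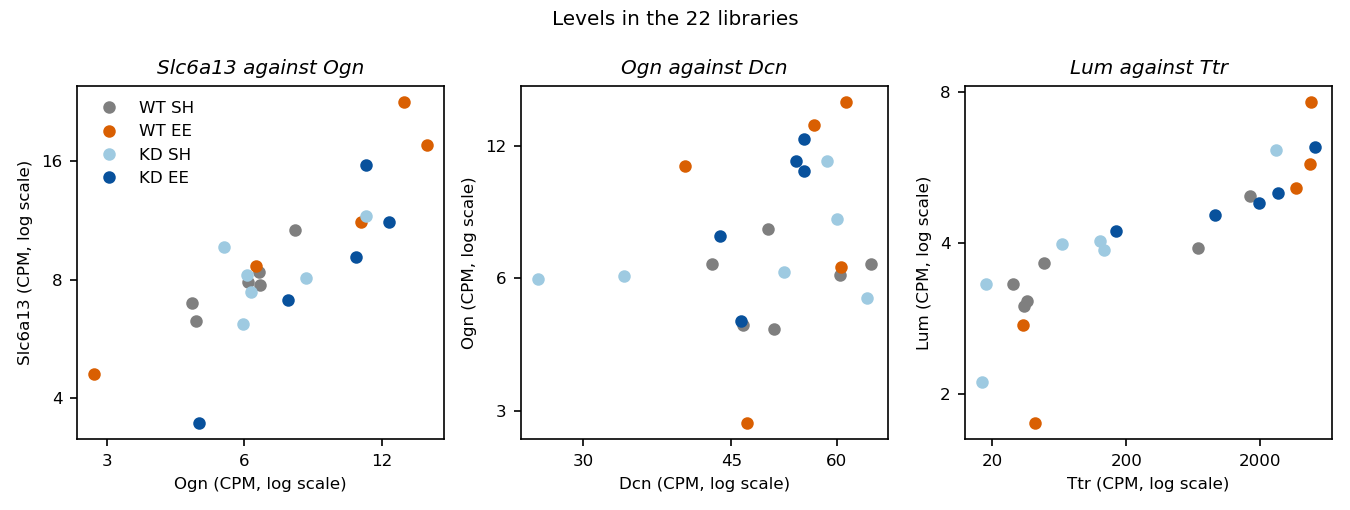
CPM (log axes) of Slc6a13 against Ogn (left), Ogn against Dcn (middle) and Lum against the choroid plexus gene Ttr (right), 1 point per library, colored by group. Slc6a13 follows Ogn (r = 0.889 of log2 CPM, group means removed), Ogn does not follow Dcn closely (0.279), and within each group Lum is lower in every library of low Ttr than in every library of high Ttr, down to 1.75 CPM in 31B. Library 2 alone is of high Ttr in KD SH, and library 9 alone is of low Ttr in KD EE, so the separation there rests on that library. How many of all genes separate in this way was not counted.

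The genes with the most similar pattern over the 22 libraries, by Pearson's r of log2 CPM with group means kept, among 18482 genes and given as a description, differed between members. For Ogn they were Ptgds (prostaglandin D synthase, 0.929), Fmod (fibromodulin, another small leucine-rich proteoglycan, 0.922), Slc22a6 (an organic anion transporter, 0.908), Wnt6 (0.9) and Itih2 (0.888). For Slc6a13 they included Fmod (0.904), Mgp (matrix Gla protein, 0.901), Ptgds (0.901) and Slc22a8 (an organic anion transporter, 0.885). For Aldh1a2 they included Serping1 (the C1 inhibitor, 0.89), Colec12 (0.88), Cp (ceruloplasmin, 0.85) and Gjb2 (connexin 26, 0.84), with Ogn and Slc6a13 at ranks 6 and 9. Ptgds and Fmod stood in the first 5 of both Ogn and Slc6a13.

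The remaining proteoglycans had other companions. For Lum they included Tspo (0.912), Calml4 (0.898), Zfp185 (0.893) and Tcea3 (0.891), with Ogn at rank 439. For Bgn they were Agtrap (0.774), Serping1 (0.764), Eya2 (0.764), Aldh3b1 (0.763) and Uaca (0.751). For Dcn they were Rhoa (a small GTPase of the cytoskeleton, 0.785), AW551984 (0.784), Nnat (0.771), Fam122a (0.765) and Mrps21 (a mitochondrial ribosomal protein, 0.763), and Ogn stood at rank 3409 in its order.

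The other genes of each family or pathway were read from the same fits. Of 14 further small leucine-rich proteoglycans 12 were tested, and with 17 libraries 2 were called higher in WT EE and 0 in KD EE. The mean level of Fmod was 7.72 ± 2.24 CPM (SD, n = 6) for WT SH, while for WT EE it was 14.2 ± 9.08 CPM (SD, n = 5), and its log2 fold change with 17 libraries was 1.34 ± 0.28 in WT (adjusted p = 0.00372, edgeR) and 0.90 ± 0.26 in KD (adjusted p = 0.0977, edgeR). Prelp, which anchors collagen at basement membranes, had 0.88 ± 0.13 in WT (adjusted p = 0.000114, edgeR) and 0.39 ± 0.12 in KD (adjusted p = 0.137, edgeR). Ecm2 and Podn were not called in either genotype, with log2 fold changes of 0.41 and 0.33 in WT. Over the 12 genes the median was 0.19 in WT, against 0.94 for the 6 members and -0.002 for all genes. With 22 libraries 0 of the 12 were called in WT, KD or the average.

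Of 24 genes of fibrillar and fibroblast matrix, 11 were called higher in WT EE and 7 in KD EE with 17 libraries, none was called lower, and 0 were called with 22. The largest differences were in Col8a1 and Col8a2, chains of the network-forming collagen VIII, at 3.99 ± 0.35 and 2.95 ± 0.26 in WT and 3.48 and 2.55 in KD, and in Pcolce, an enhancer of procollagen cleavage, at 2.24 ± 0.22 in WT and 1.95 in KD. Col18a1 (collagen XVIII of basement membranes) had 1.29 in WT and 1.03 in KD. Over the 22 libraries, with group means kept, r of Col8a1 was 0.827 with Lum, 0.673 with Ogn and 0.349 with Dcn. Median log2 fold changes of the list were 0.72 in WT and 0.52 in KD with 17 libraries.

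Of the 35 other leptomeningeal markers 14 were called higher in WT EE and 6 in KD EE with 17 libraries, with medians of 0.71 and 0.31, and none was called lower. Slc13a4 (a sulfate transporter) had 2.55 ± 0.22 in WT and 2.03 ± 0.21 in KD, and Igf2 (insulin-like growth factor 2) had 2.27 ± 0.22 and 1.77 ± 0.21, all called. Both transcripts are also known from choroid plexus. Slc26a7 had 1.90 ± 0.38 (adjusted p = 0.00307, edgeR) and Slc47a1 1.78 ± 0.45 (adjusted p = 0.0226, edgeR) in WT, and 1.41 (adjusted p = 0.0596) and 1.59 (adjusted p = 0.0652) in KD. With 22 libraries, 19 of the 35 had an unadjusted p under 0.05 and a higher level in WT EE and 7 in KD EE, and of the 35 only Slc16a9 was called, in the average over genotypes.

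Around Aldh1a2, 17 of 19 other genes of retinoid synthesis and handling were tested. With 17 libraries 4 were called higher in WT EE, among them Adh1, Rbp4 and Stra6, and 1 in KD EE. Stra6, a receptor that takes up retinol, had 0.98 ± 0.14 in WT (adjusted p = 5.12e-05, edgeR) and 0.27 ± 0.13 in KD (adjusted p = 0.424, edgeR). Cyp26b1, an enzyme that degrades retinoic acid, and the receptor gene Rara were not called, at 0.14 and 0.09 in WT. The median of the 17 genes was 0.14 in WT, and 0 were called with 22 libraries.

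Around Slc6a13, none of the 5 other transporters for GABA, betaine, taurine and creatine was called in any housing comparison with 22 or 17 libraries. Slc6a12, its neighbor on chromosome 6 and the transporter of betaine and GABA, had 1.14 CPM in WT SH and 2.28 in WT EE, with 1.33 ± 0.38 on the log2 scale with 17 libraries (adjusted p = 0.0502, edgeR) and 0.18 ± 0.38 in KD (adjusted p = 0.904, edgeR). Over the 22 libraries it had r = 0.859 with Slc6a13, with group means kept. The GABA transporter Slc6a11 and the taurine transporter Slc6a6 had log2 fold changes of -0.15 and -0.19 in WT with 17 libraries, and r of 0.046 and -0.182 with Slc6a13 (group means kept).

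The genes flanking the members on the chromosomes were read as well. Omd, next to Ogn, was at 0.37 CPM in WT SH and 0.63 in WT EE and had r = 0.747 with Ogn (group means kept), with a log2 fold change of 0.78 in WT (adjusted p = 0.759, edgeR, 22 libraries). Kera, next to Lum, was at or below 0.06 CPM in the mean of every group and did not pass the filter. Nol8, Usp18, Aqp9, Polr2m, Haus7, Atp2b3 and Btg1, the other flanking genes, were not called between WT EE and WT SH with 22 or 17 libraries. With 22 libraries 0% of all genes were called in that comparison, so there the lack of a call does not set them apart from the members. Their correlations with the members are not reported here.

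Markers of the cells of the hippocampus itself differed less. With 22 libraries the median log2 fold change in WT was -0.09 for 8 neuronal, -0.08 for 8 astrocyte, -0.14 for 8 oligodendrocyte and -0.04 for 8 microglial markers, and with 17 libraries 0 of these genes were called in WT and 1, the oligodendrocyte gene Opalin, was called lower in KD EE. Blood genes were higher in WT EE for 5 of 5 genes with 22 libraries (median 0.53), and 4 of 5 were called with 17, while in KD EE 1 of 5 was higher with 22 libraries (median -0.10) and 0 were called with 17. Of 11 ependymal markers 10 were tested and 5 were called higher in WT EE with 17 libraries, and in KD EE 3 were called higher and 1 lower. Of 7 striatal markers 1, Ppp1r1b, was called higher in both genotypes with 17 libraries, and 1 of 7 thalamic markers, Ramp3, in WT. Of the pericyte and smooth muscle markers 1, Vtn, was called in WT, of the endothelial markers 0, and of 8 markers of hippocampal regions 0. The part of each of these in the levels of the 6 genes was not tested.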

How the data were processed

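Hippocampal polyadenylated RNA was sequenced by the authors as 24 paired-end libraries, 6 per group. Per the study's methods, Skewer removed adapters, STAR 2.5 placed reads on GRCm38, and HTSeq assigned uniquely placed reads to gene symbols without regard to strand. The files deposited by the authors hold these raw counts without normalization, and rows that name no gene were left out (between 14.05% and 18.6% of each library). A further deposited table of normalized values was not used. Positions and exon lengths came from GENCODE M21 and promoters from RefSeq (GRCm38.p6).

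Counts were tested in R 4.3.3 with edgeR 4.0.16, with genes filtered by filterByExpr, libraries scaled by TMM, 1 mean for each of the 4 groups and quasi-likelihood tests, with Benjamini-Hochberg adjustment across every gene tested. The study's thresholds defined a call (adjusted p up to 0.05, log2 fold change at least 0.38 in size). DESeq2 1.42.0 was an alternative. The fit was tested on simulated data. CPM were scaled by TMM over 22 libraries, and log2 CPM had a prior count of 2. Correlations were tested with 100000 permutations of libraries within groups (scipy 1.17.1, Python 3.11.15). Labels do not say that libraries came from separate mice, so p values measure the spread between libraries. Housing was given by cage, and the labels name neither cage nor litter, so mice of a group may have shared them. The tests took no account of that. Floors cover counting error only, since reads carried no molecular identifiers. Library codes gave no batch.

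The 6 genes and all marker lists were chosen with earlier results of these data known. Named beside the members were the 5 genes with the highest r for each, the genes next to them, and from each list up to 4 tested genes with a mean of 1 CPM or more and the largest housing difference averaged over genotypes. The lists covered other small leucine-rich proteoglycans, fibroblast matrix, leptomeninges, retinoid handling, SLC6 transporters, choroid plexus, ependyma, endothelium, pericytes and smooth muscle, blood, astrocytes, oligodendrocytes, microglia, neurons, hippocampal regions, thalamus and striatum. Some genes that this rule names are not reported here. Genes called within a list were also named after their values were seen.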

Additional observations from a re-analysis of the deposited data

How the results depend on the processing

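No paired analysis was possible because the groups share no replicate numbers. Of the 6 genes, 4 were called in WT and 4 in the average over genotypes with the study's 17 libraries, 3 and 1 without lettered libraries, and 0 in every other setting apart from the average when single libraries were left out (0 to 2, the 2 without 31B). They were 0 in KD, in both genotype comparisons and in the interaction under every alternative. Counts of all genes called in WT were 0 over 22 libraries, 664 with 17 libraries, 1 with 24, 314 without lettered libraries, 23 by DESeq2 and 7 without a filter on low counts. In KD they were 325 with 17 libraries, 2 by DESeq2 and 0 to 1 with single libraries left out. In the average the 27 genes became 720 (17 libraries), 90 (24 libraries), 80 (no lettered libraries), 217 (DESeq2), 44 (DESeq2 size factors in edgeR), 50 (no TMM), 209 (no filter), 45 (at least 10 counts in every library), 49 (adjusted p alone) and 11 (choroid score as covariate), and 2 to 287 with single libraries left out. For KD against WT they were 2 in SH by DESeq2, and in EE 1 with 17 libraries and 0 to 1 with single libraries left out. Over 22 libraries, the genes with an unadjusted p under 0.05 numbered 1598 in WT, 1779 in KD, 1065 between genotypes in SH and 482 in EE. The causes were not tested.

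Directions turned for log2 fold changes that were not called over 22 libraries. With the choroid score as covariate they were -0.15 for Dcn in WT, KD and the average, -0.20, -0.24 and -0.22 for Lum, -0.32 in KD and -0.005 in the average for Slc6a13, and -0.045 for the interaction of Lum. With 17 libraries Lum was -0.25 for KD against WT in EE, and the interactions were -0.047 for Dcn, -0.32 for Lum and -0.059 for Bgn. Without lettered libraries Dcn was -0.036 and Slc6a13 -0.21 in KD, Lum -0.49 for KD against WT in EE, and the interactions -0.21 for Dcn, -0.62 for Lum and -0.21 for Bgn. With 24 libraries Dcn was -0.019 in WT, and Ogn 0.08 for KD against WT in EE. The interaction of Lum was -0.017 without TMM and -0.005 without a filter. With single libraries left out, Dcn ran from -0.05 to 0.093 in WT, -0.086 to 0.134 in KD, -0.039 to 0.074 in the average, -0.185 to 0.032 for KD against WT in SH and -0.095 to 0.12 for the interaction. Slc6a13 in KD ran from -0.133 to 0.327. Lum ran from -0.048 to 0.236 for KD against WT in SH, -0.069 to 0.384 in EE and -0.193 to 0.262 for the interaction. For KD against WT in EE, Ogn ran from -0.276 to 0.165, Aldh1a2 from -0.432 to 0.123 and Bgn from -0.14 to 0.05. In the 17 libraries r of Dcn with the pericyte list was -0.119 and r of Bgn with the endothelial list -0.246, and over 22 libraries rho of the latter was -0.005. Alternatives were counted for correlations of the members with each other and with the leptomeningeal, pericyte, endothelial and blood lists. Of the others among these, 106 kept their side of an unadjusted permutation p of 0.05, 38 lost it and 9 gained it. The choroid, matrix and ependymal lists were left out of that count. In the 17 libraries r with the ependymal list was -0.135 for Ogn, -0.135 for Slc6a13, -0.438 for Aldh1a2 and -0.198 for Bgn. All 48 group means of CPM under other scaling or in 17 libraries stayed within 1 SD of the mean over 22 libraries. They come from the same libraries or a part of them, so this is no check of stability. In WT EE the mean of Slc6a13 was 12.95 ± 7.2 CPM (SD, n = 5) with 22 libraries and 16.3 CPM (n = 3) with 17. With 5 or 6 libraries a group and a spread as large as that of Aldh1a2, the 95% intervals of comparisons between 2 groups span more than 1 on the log2 scale. For the average over genotypes the interval of Aldh1a2 ran from 0.20 to 1.08.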
